A study of Mus musculus with 4 samples.

Results

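Collagens are the fibrous proteins of the extracellular matrix, and fibroblasts are their main producers. The 44 genes described here are those whose symbol follows the pattern of a collagen chain, the letters Col with the number of the collagen type, then the letter a with the number of the chain. They were taken by name alone from 54842 gene identifiers counted in mouse embryonic fibroblasts (MEF cells), in a comparison that asked how cells lacking the DNA topoisomerase Top2β differ from wild-type (wt) cells. By the structure of their proteins they were put in 4 classes, with 11 fibrillar, 6 basement membrane, 9 FACIT and 18 other collagens.

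Collagen chains wind around each other into a helix, with chains of the same or of different genes. Fibrillar collagens (types I, II, III, V, XI, XXIV and XXVII) form the cable-like fibrils of connective tissue, and type IV collagens form the sheet-like network of basement membranes. FACIT collagens sit on the surface of fibrils, and the remaining types include the beaded filaments of type VI, anchoring fibrils, short network-forming chains and collagens with a membrane anchor. Before they leave the cell, the chains are hydroxylated and folded with the help of dedicated enzymes and chaperones, and outside it they are trimmed and cross-linked.

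Libraries were made from rRNA-depleted total RNA of untreated MEF cells, 2 from wt and 2 from Top2β-null cells. The Top2β-null cells came from Top2β-null mice and were a gift of other laboratories. No litter or stock shared with the wt cells is named in the sources used here, so loss of Top2β and origin of the cells cannot be told apart. Nothing states that libraries of a genotype come from separate cultures, so p-values measure the spread between these libraries, which may be technical. The libraries summed to between 133116830 and 149647278 counts. Top2b, the targeted gene, fell from 18259 and 18465 normalized counts in wt to 3879 and 3789 in Top2β-null libraries. Normalized counts are counts scaled to a common library size. Of 9 fibroblast markers without collagens, Vim (364752 and 367618 normalized counts in wt, 203170 and 206247 in Top2β-null libraries) and Fn1 were the most abundant, while Fap and Lum stayed below 4 normalized counts in every library. Of the 7 tested, Pdgfra, Pdgfrb, Thy1 and Dcn were called higher by the cut-offs used for the collagens (57.1%, against 5.52% of all genes) and 0 lower (against 5.25%), while Vim, Fn1 and S100a4 were lower by the adjusted p with log2 fold changes of -0.84, -0.36 and -0.59. The 5 osteoblast markers summed to 6938 and 6897 normalized counts in wt and 8755 and 9052 in Top2β-null libraries, nearly all of it Runx2, with Ibsp at 0. The 5 leukocyte markers summed to 2387 and 2463 in wt and 1295 and 1299 in Top2β-null libraries, with Tyrobp at 0. Of the 3 leukocyte markers tested, 2 were higher and 1 lower by the adjusted p (66.7% and 33.3%, against 32.8% and 33.7% of all genes). Cd68 was lower (1641 and 1688 in wt, 302 and 289 in Top2β-null libraries) and was called (33.3%, against 5.25%). Csf1r (740 and 767 in wt, 962 and 978 in Top2β-null libraries) and Itgam, which passed the filter through Top2β-null cells alone, were higher but not called.

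Of the 44 collagen genes, 36 reached 10 counts in 2 or more libraries and were tested. Of these, 3 passed through 1 genotype alone (Col4a5 and Col4a6 through wt, Col28a1 through Top2β-null cells) and so had to differ. Changes are given as log2 fold changes of Top2β-null over wt cells, from edgeR's quasi-likelihood test over all genes and repeat families together, with Benjamini-Hochberg adjusted p. The cut-offs for a call are those of the study's methods, which ask for an adjusted p below 0.05, a log2 fold change above 1 in either direction and a mean of more than 100 normalized counts. By these, 4 collagens were called higher (Col11a1, Col4a4, Col6a2 and Col7a1) and 7 lower (Col1a1, Col3a1, Col4a1, Col4a2, Col4a5, Col4a6 and Col14a1).

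The 4 called higher are 11.1% of the collagens tested, against 5.52% of all genes tested, and the 7 called lower are 19.4%, against 5.25%. Among genes with a mean above 100 normalized counts, 14.8% of 27 collagens and 8.32% of 16656 genes were called higher, and 25.9% and 7.91% were called lower. With the adjusted p as the only criterion, 17 collagens were higher and 13 lower, 47.2% and 36.1% of those tested, against 32.8% and 33.7% of all genes, so most of that count lies near the background. With DESeq2 (an alternative added after the data were seen) the same criterion gave 13 higher and 11 lower, against 28.6% and 28.5% of all genes, since Col4a3, Col8a2, Col11a2, Col15a1, Col18a1 and Col23a1 no longer passed. The median log2 fold change was -0.068 over the collagens tested and -0.0058 over all genes tested, and the median of its absolute size was 0.94 and 0.42. Members of the family therefore moved far in both directions around a centre close to 0. The members are not replicates of each other, and no test was made over the list.

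**Figure D1:**
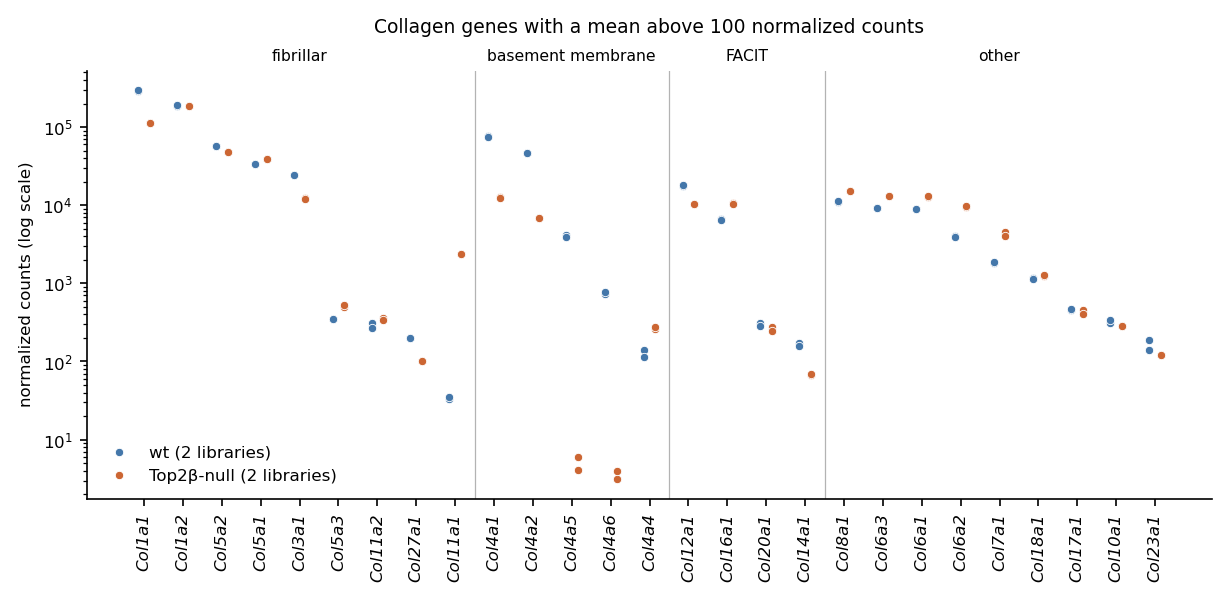
Normalized counts (log scale) of the 27 collagen genes with a mean above 100, grouped by class, with 1 point for each library (blue, wt; orange, Top2β-null). Points of a genotype mostly lie on top of each other, Col4a5 and Col4a6 drop from 4060 and 756 on average to below 6, and Col11a1 rises from 34.0 to 2385.

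Collagen transcripts as a whole took a smaller share of the counts in Top2β-null cells. All 44 genes together held 0.677% ± 0.0028 (SD, n = 2) of the gene counts of wt libraries. In Top2β-null libraries they held 0.458% ± 0.0015 (SD, n = 2). The difference of -0.219 percentage points was larger than the spread between replicates (p = 0.33 in a two-sided exact permutation test, which is the lowest value possible with 2 libraries against 2). The summed normalized counts in Top2β-null cells were 0.632 times those in wt cells. Fewer cells that express a gene and less RNA per cell cannot be told apart in such bulk libraries. By class, the sum was 0.667 times the wt level for fibrillar, 0.155 for basement membrane, 0.863 for FACIT and 1.54 for other collagens.

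Type I collagen dominated in both genotypes. Col1a1 and Col1a2 encode the α1 and α2 chains of type I collagen, the main protein of fibrils in skin, tendon and bone. Col1a1 made up 36.8% and 37.6% of collagen counts in the wt libraries and 22.6% in each Top2β-null library. Col1a2 made up 24.0% in each wt library and 36.9% and 37.0% in Top2β-null libraries, so the order of the chains turned around. Type IV chains Col4a1 and Col4a2 held 9.76% and 9.41%, and 5.95% and 5.82%, of collagen counts in wt libraries. In Top2β-null libraries they held between 1.39% and 2.53%.

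**Figure D2:**
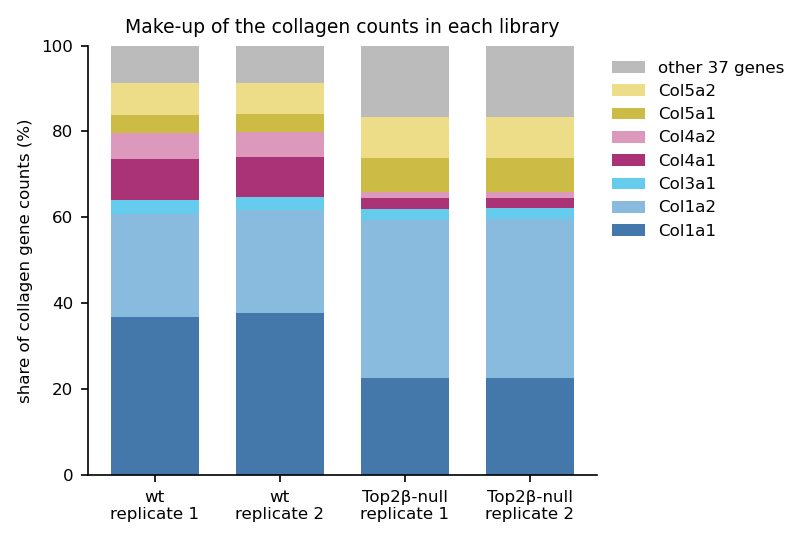
Share of the collagen counts (%) taken by the 7 chains most abundant in wt cells and by the other 37 genes in each of the 4 libraries. Col1a1 narrows from 36.8% and 37.6% to 22.6% and Col1a2 widens from 24.0% to 36.9% and 37.0%, while the type IV chains shrink and the other genes go from 8.70% and 8.62% to 16.7% and 16.6%.

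Per kb of annotated exon, Col1a1 stood highest of the collagens in wt cells with 44617 normalized counts per kb, followed by Col1a2 (15183), Col4a1 (10098), Col4a2 (6989), Col5a2 (6002), Col5a1 (3930) and Col3a1 (2481). In Top2β-null cells Col1a1 (17128 per kb) and Col1a2 (14791) stood in front by this length, and Col5a2 (4968) and Col5a1 (4631) stood above Col4a1 (1659) and Col4a2 (1046). Exon length here is the union of all annotated transcripts. With the length of the longest transcript, the 10 highest genes in wt cells were the same, but Col1a2 moved to 35277 per kb beside 49379 for Col1a1, because its annotated exons add up to 12426 bases and its longest transcript to 5348. In Top2β-null cells that length turns the order of the type I genes, with 34366 per kb for Col1a2 and 18956 for Col1a1.

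Of 10 fibrillar collagens tested, 1 was called higher (10%, against 5.52% of all genes) and 2 lower (20%, against 5.25%), and the type I genes parted. Col1a1 (chromosome 11 of GRCm38, 94936224 to 94953042) had 287594 and 298043 normalized counts in wt and 112305 and 112511 in Top2β-null libraries. The genotypes do not overlap, and Col1a1 fell to 38.4% of the wt mean (log2 fold change -1.38, standard error 0.031, adjusted p = 1.19e-15). Col1a2 (chromosome 6, 4504814 to 4541544) had 187377 and 189950 normalized counts in wt and 183208 and 184368 in Top2β-null libraries. With a log2 fold change at -0.038 (standard error 0.029, adjusted p = 0.267) it did not pass the test, and its sign turned to 0.032 when libraries were scaled to their total count.

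The ratio of counts of both chains within a library needs no scaling. There were 1.53 and 1.57 Col1a1 counts for each Col1a2 count in wt libraries and 0.613 and 0.610 in Top2β-null libraries. On the log2 scale this ratio was 1.34 lower in Top2β-null cells, with a pooled replicate SD of 0.016. Type I collagen is built mostly of α1 and α2 chains at a fixed proportion, but these values are of RNA and say nothing of the chains in the protein.

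Col3a1 (chromosome 1, 45311538 to 45349706), the only chain of type III collagen of stretchy tissues such as skin and vessels, had 24454 and 24246 normalized counts in wt and 12216 and 11983 in Top2β-null libraries. It fell by 1.01 on the log2 scale (standard error 0.025, adjusted p = 3.96e-15), just past the cut-off of 1. Scaling to the total count (-0.94), TMM factors from genes only (-0.997), no filter on low counts (-0.99) and leaving out either Top2β-null library (-0.98 in each case) end the call of Col3a1. Col27a1, a fibrillar collagen of cartilage, stood just outside the same cut-off with 198 and 202 normalized counts in wt and 100.46 and 100.03 in Top2β-null libraries (log2 fold change -0.99, standard error 0.14, adjusted p = 1.29e-05). Leaving out wt replicate 1 takes Col27a1 past it, to -1.02.

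The fibrillar gene that rose most was Col11a1 (chromosome 3, 114030540 to 114220718), which encodes a chain of type XI collagen, a minor collagen that nucleates the thin fibrils of cartilage. It had 33.3 and 34.8 normalized counts in wt and 2374 and 2396 in Top2β-null libraries. The lowest Top2β-null value was far above the highest wt value, and the means were 70.1-fold apart (log2 fold change 6.12, standard error 0.087, adjusted p = 4.72e-18). The nearest tested protein-coding genes beside Col11a1, collagens left out, were Rnpc3 (log2 fold change 0.16) and, at a distance of 1489715 bases, S1pr1 (3.07, called higher). Col2a1, the chain of type II collagen and the main collagen of cartilage, had 8.07 and 9.66 normalized counts in wt and 166 in each Top2β-null library. Col2a1 was 18.7-fold higher (log2 fold change 4.21, standard error 0.26, adjusted p = 4.51e-10), and it was not called only because its mean of 87.5 normalized counts lies under 100. Leaving out a wt library raises that mean, and Col2a1 is then called.

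Col11a2, which shares trimers with Col11a1, moved little, from 308 and 270.5 to 355 and 343 normalized counts (log2 fold change 0.27, standard error 0.097, adjusted p = 0.0225). Of 7 markers of cartilage cells without collagens 4 were tested, and by the adjusted p 2 were higher (Sox9 and Comp) and 2 lower (Acan and Matn3), 50% each against 32.8% and 33.7% of all genes. Acan and Matn3 passed the filter through wt cells alone and so had to differ. The list had a summed level of 4556 to 4596 normalized counts in wt and 4954 to 5060 in Top2β-null libraries, nearly all of it Sox9. Acan, the large proteoglycan of cartilage, had 98.9 and 100.5 normalized counts in wt and 5.18 and 3.96 in Top2β-null libraries, and Matn1 and Hapln1 stayed at or below 1.04 in every library. Of the transcription factors that act with Sox9 on cartilage collagens, Sox5 went from 8.07 and 5.80 to 871 and 808 normalized counts (log2 fold change 6.90, adjusted p = 2.21e-15). Sox6 had 16.1 and 22.2 in wt and 6.21 and 3.96 in Top2β-null libraries. Sox5 passed the filter through Top2β-null cells alone and Sox6 through wt cells alone, so both had to differ. The part of these markers and factors in the change of Col11a1 and Col2a1 was not tested.

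Type V collagen is incorporated into type I fibrils and limits their thickness. Col5a1 had 33512 and 33212 normalized counts in wt and 39282 and 39359 in Top2β-null libraries (log2 fold change 0.24, standard error 0.025, adjusted p = 3.7e-07). Col5a2 had 57665 and 57470 in wt and 47495 and 47798 in Top2β-null libraries (log2 fold change -0.27, standard error 0.025, adjusted p = 9.16e-08). The partner chains thus moved in opposite directions by small amounts that exceed the replicate spread, and the log2 ratio of Col5a1 to Col5a2 rose by 0.51 (pooled replicate SD 0.0051). Col5a3 went from 351 and 353 to 503 and 525 normalized counts (log2 fold change 0.55). Col5a2 and Col3a1 lie next to each other on chromosome 1 in convergent orientation, 24.6 kb apart, with log2 fold changes of -0.27 and -1.01. Col24a1, the last fibrillar gene, had at most 17.6 normalized counts in any library and was not tested.

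**Figure D3:**
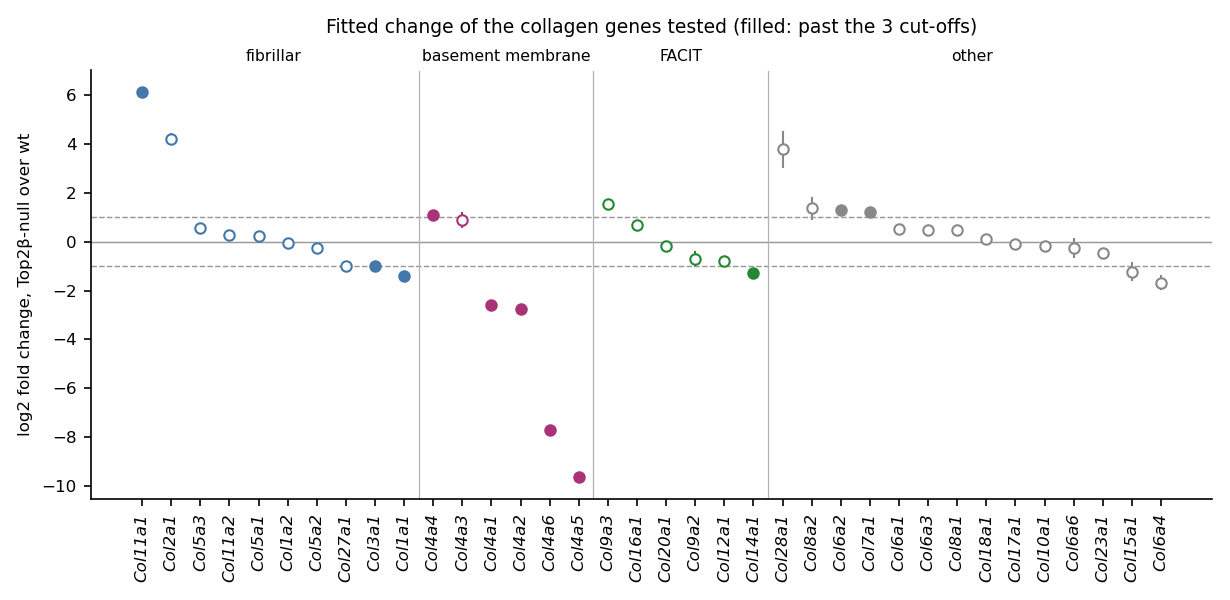
Log2 fold change of Top2β-null over wt cells with its standard error for the 36 collagen genes tested, ordered by size within each class. Filled points passed all 3 cut-offs, and dashed lines mark a log2 fold change of 1 in either direction. The basement membrane class reaches down to -9.61 and the fibrillar class up to 6.12, and most of the other collagens lie between the dashed lines.

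In the basement membrane class 4 of 6 genes were called lower (66.7%, against 5.25% of all genes) and 1 higher (16.7%, against 5.52%), and 2 of the 4, Col4a5 and Col4a6, are those that passed the filter through wt cells alone. The median log2 fold change was -2.67, and -1.08 without wt replicate 1 and -0.86 without wt replicate 2, when both these genes drop out of the test. Type IV collagen has 6 chains, and their genes lie in 3 head-to-head pairs, each pair with starts close together and transcription in opposite directions. The α1 and α2 chains form the network found in nearly every basement membrane, and the α3, α4, α5 and α6 chains form networks of particular tissues such as kidney glomerulus, lung and skin. Col4a1 (chromosome 8, 11198423 to 11312826) had 76278 and 74465 normalized counts in wt and 12553 and 12214 in Top2β-null libraries, 16.4% of the wt mean (log2 fold change -2.61, standard error 0.029, adjusted p = 2.59e-19). Col4a2 (chromosome 8, 11312805 to 11449287) had 46478 and 46040 in wt and 6898 and 6946 in Top2β-null libraries, 14.96% of the wt mean (log2 fold change -2.74, standard error 0.027, adjusted p = 6.56e-20). Both genes fell by nearly the same factor, and the log2 ratio of Col4a1 to Col4a2 differed by 0.13 between genotypes, with a pooled replicate SD of 0.027 (0.71 and 0.69 in wt, 0.86 and 0.81 in Top2β-null libraries).

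Col4a5 (chromosome X, 141475385 to 141689234) had 4149 and 3971 normalized counts in wt libraries, from 4111 counts in each, and 4.14 and 5.94 in Top2β-null libraries, from 4 and 6 counts. The 10 counts of both Top2β-null libraries amount to 0.125% of the wt level (95% exact binomial interval 0.0598% to 0.230%, counting error only). Col4a6 (chromosome X, 141165403 to 141474076) had 736 and 777 normalized counts in wt libraries and 3.11 and 3.96 in Top2β-null libraries, from 3 and 4 counts, or 0.468% of the wt level (interval 0.188% to 0.967%). The fitted log2 fold changes were -9.61 (standard error 0.11, adjusted p = 4.2e-19) and -7.69 (standard error 0.18, adjusted p = 2.5e-15), and at so few counts they depend on the prior count of the fit. With either wt library left out, neither gene reaches 10 counts in 2 libraries, so neither can then be tested. Atg4a, the nearest tested protein-coding gene beyond the far end of Col4a6, lies 1133 bases from it. RNA of Atg4a was present in both genotypes, with 1082 and 1046 normalized counts in wt and 815 and 802 in Top2β-null libraries. On the side of Col4a5, Irs4 was scarce, with 2.02 and 1.93 in wt and 11.4 and 13.9 in Top2β-null libraries.

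Col4a3 and Col4a4 (chromosome 1, 82586921 to 82722059 and 82448423 to 82586849) did not share this decrease. Col4a4 had 140 and 113 normalized counts in wt and 257 and 276 in Top2β-null libraries and rose by 1.08 on the log2 scale (standard error 0.13, adjusted p = 2.99e-06). Without wt replicate 2, whose value is the lower of the pair, it is 0.91 and Col4a4 is no longer called. Col4a3 had 20.2 and 42.5 normalized counts in wt and 71.5 and 45.6 in Top2β-null libraries (log2 fold change 0.89, standard error 0.33, adjusted p = 0.0295 with edgeR and 0.0784 with DESeq2). Its lowest Top2β-null value lies close to its highest wt value, and with each library left out its log2 fold change ran from 0.44 to 1.51. The log2 ratio of Col4a3 to Col4a4 gives no direction, with a difference of -0.12 and a pooled replicate SD of 0.79.

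**Figure D4:**
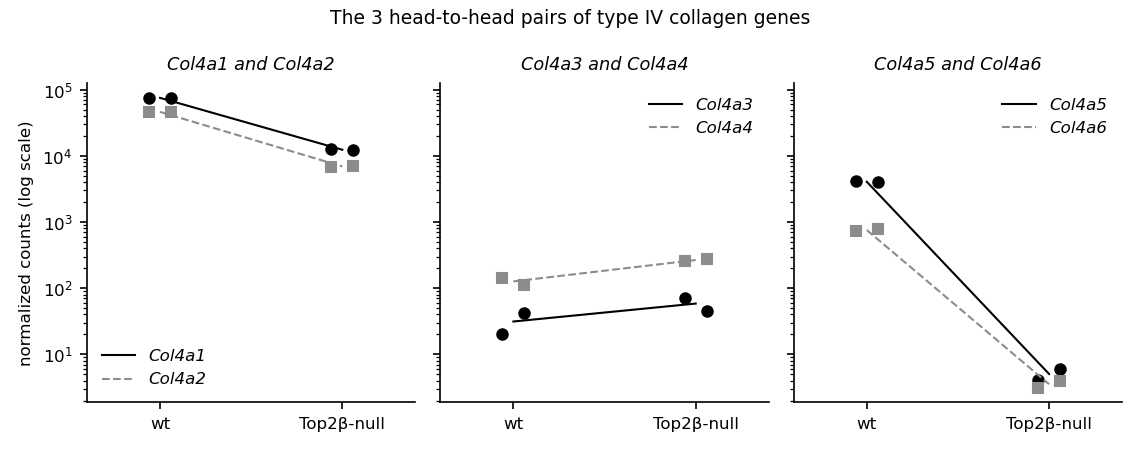
Normalized counts (log scale) of the 6 type IV collagen genes, 1 panel for each head-to-head pair, with 1 point for each library and lines between the group means. Lines go down from wt to Top2β-null cells for Col4a1 with Col4a2 and for Col4a5 with Col4a6. Col4a4 goes up, and the Col4a3 libraries of both genotypes come close (42.5 and 45.6).

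The sequences around the starts of these pairs are shown because Col4a1 and Col4a2, and Col4a5 and Col4a6, fell as pairs, with the Col4a3 and Col4a4 pair for comparison. They come from RefSeq on GRCm38.p6, 5′ to 3′ on the strand named, with capitals for exact matches, on either strand, to CCAAT (the CCAAT box), GGGCGG (the GC box) or TATAAA (the TATA box). Of the 44 collagen symbols, 35 had an entry. The annotated transcripts of Col4a1 and Col4a2 overlap by 22 bases at chr8:11312805-11312826, which hold 1 GC box. In the 22 bases before their start, 7.2% of 32851 promoters hold a GC box. The overlap lies after both starts, so its position differs from that of these windows. The starts of Col4a4 and Col4a3 have 71 bases between them at chr1:82586850-82586920, with none of the 3 motifs, and a GC box lies in 20.7% of promoters in a stretch of that length. The forward strand is given for Col4a2 and the reverse strand, which is that of Col4a4, for the interval.
Overlap of Col4a1 and Col4a2: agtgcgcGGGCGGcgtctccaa
Interval of Col4a4 and Col4a3: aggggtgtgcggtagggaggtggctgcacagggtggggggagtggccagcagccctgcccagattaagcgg

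The starts of Col4a6 and Col4a5 lie farther apart, with 1308 bases between them. The 250 bases before Col4a6 (chrX:141474077-141474326, reverse strand) hold 1 GC box, as do 32.7% of promoters, and the 216 bases before Col4a5 (chrX:141475169-141475384, forward strand) hold 1 CCAAT box, as do 30.8%. The G and C content is 47.6% before Col4a6 and 69.0% in the Col4a4 and Col4a3 interval, against medians of 52.4% and 54.9% over all promoters at these lengths. A match describes letters and is not evidence of a bound factor, and a missing match says only that the letters are not in the window.
Before Col4a6: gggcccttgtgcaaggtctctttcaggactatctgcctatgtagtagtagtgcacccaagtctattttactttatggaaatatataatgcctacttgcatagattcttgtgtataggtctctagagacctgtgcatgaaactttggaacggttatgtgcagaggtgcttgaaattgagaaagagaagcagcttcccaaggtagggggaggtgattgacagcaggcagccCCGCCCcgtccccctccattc
Before Col4a5: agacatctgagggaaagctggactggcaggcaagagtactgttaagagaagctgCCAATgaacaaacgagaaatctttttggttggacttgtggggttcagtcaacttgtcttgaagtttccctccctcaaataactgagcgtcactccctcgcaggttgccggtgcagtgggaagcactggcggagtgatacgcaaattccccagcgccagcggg

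As a contrast to the Col4a5 and Col4a6 pair, the 250 bases before Col11a1 (chr3:114030290-114030539, forward strand), the collagen with the largest fitted increase, hold 2 GC boxes and 1 CCAAT box, motifs present in 32.7% and 33.8% of promoters, at a G and C content of 62.4%.
Before Col11a1: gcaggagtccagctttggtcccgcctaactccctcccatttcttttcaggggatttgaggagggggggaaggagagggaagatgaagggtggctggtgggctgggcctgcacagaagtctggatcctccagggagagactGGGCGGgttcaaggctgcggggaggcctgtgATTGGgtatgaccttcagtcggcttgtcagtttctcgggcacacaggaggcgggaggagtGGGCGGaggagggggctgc

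Smooth muscle cells also lay down type IV collagen. Of 5 of their markers, 4 were lower by the adjusted p (80%, against 33.7% of all genes) and 0 higher, and 3 of them (Acta2, Tagln and Cnn1) were called lower (60%, against 5.25%), while Des passed the filter through wt cells alone. Their summed level was 113047 and 115748 normalized counts in wt and 6089 and 6317 in Top2β-null libraries, most of it Acta2 (104063 and 106902 in wt, 5256 and 5431 in Top2β-null libraries). Myh11, the myosin that defines the smooth muscle lineage, had 37.7 to 60.6 normalized counts in every library and did not pass the test. Endothelial and epithelial cells make basement membranes as well, and the 4 endothelial markers summed to 162 to 165 normalized counts in wt and 252 to 258 in Top2β-null libraries. By the adjusted p 1 of the 4 was higher and 1 lower (25% each, against 32.8% and 33.7% of all genes). Kdr rose (71.7 and 68.6 in wt, 203 and 205 in Top2β-null libraries) and was called (25%, against 5.52%). Tek, which passed the filter through wt cells alone, was lower (43.4 and 34.8 in wt, 9.32 and 3.96 in Top2β-null libraries) but not called. Pecam1 and Cdh5 did not pass the test. The 6 epithelial markers summed to 73.7 and 72.4 in wt and 22.8 and 25.8 in Top2β-null libraries. The 2 of them tested, Krt8 and Cdh1, were lower by the adjusted p (100%, against 33.7% of all genes) but not called. Both passed the filter through wt cells alone and so had to differ. The part of these cell types in the decrease of Col4a1, Col4a2, Col4a5 and Col4a6 was not tested. On chromosome 8 the nearest tested protein-coding gene beyond Col4a1, Irs2, also fell (log2 fold change -1.63), while Rab20, 4231 bases beyond Col4a2, had -0.19.

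FACIT collagens link fibrils to each other and to their surroundings. Of 9 genes 6 were tested, and 1, Col14a1, was called lower (16.7%, against 5.25% of all genes). Col14a1 (chromosome 15, 55307750 to 55520803) encodes the chain of type XIV collagen, which binds fibrils in tendon and skin. It had 175 and 159 normalized counts in wt and 66.3 and 69.3 in Top2β-null libraries, with no overlap of the genotypes (log2 fold change -1.30, standard error 0.17, adjusted p = 3.83e-06). Without wt replicate 1 its mean fell under 100 and it was no longer called, at -1.25. The nearest tested protein-coding genes on either side of Col14a1 were also lower, Deptor with a log2 fold change of -1.94, which was called, and Mrpl13 with -0.55.

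Col12a1, a close relative and the most abundant FACIT gene in wt cells, had 17528 and 18069 normalized counts in wt and 10488 and 10369 in Top2β-null libraries. It fell by 0.77 on the log2 scale (standard error 0.026, adjusted p = 1.95e-13), which is short of the cut-off. Col16a1, a FACIT collagen of skin and cartilage, went the other way, from 6720 and 6447 to 10795 and 10425 normalized counts (log2 fold change 0.69, standard error 0.029, adjusted p = 3.63e-12). Of the type IX chains, which coat cartilage fibrils, Col9a3 rose from 43.4 and 38.6 to 115 and 127 normalized counts (log2 fold change 1.56, adjusted p = 5.09e-06), at a mean under 100. Col9a2 had 33.3 and 35.7 in wt and 25.9 and 16.8 in Top2β-null libraries (adjusted p = 0.0795). Col9a1 had 1 count in all 4 libraries together, so of the 3 type IX genes only Col9a3 passed the test. Col20a1 had 248 to 308 normalized counts in all libraries (adjusted p = 0.184), and Col19a1 and Col22a1 stayed at or below 8.69.

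Among the other collagens, Col6a1, Col6a2, Col6a3 and Col7a1 rose in Top2β-null cells. Of 14 tested, 8 were higher and 3 lower by the adjusted p with edgeR (57.1% and 21.4%, against 32.8% and 33.7% of all genes). Among the 8, Col28a1 passed the filter through Top2β-null cells alone and so had to differ. With DESeq2 6 were higher and 1 lower, against 28.6% and 28.5% of all genes. By the cut-offs 2, Col6a2 and Col7a1, were called higher (14.3%, against 5.52%) and 0 lower (against 5.25%). Type VI collagen forms beaded filaments around cells from α1, α2 and α3 chains. Col6a2 (chromosome 10, 76595762 to 76623630) rose from 3984 and 3869 to 9432 and 9881 normalized counts (log2 fold change 1.30, standard error 0.031, adjusted p = 2.7e-15). Col6a1 rose from 8978 and 8952 to 12856 and 13020 (log2 fold change 0.53, standard error 0.025, adjusted p = 1.48e-11), and Col6a3 from 9138 and 9330 to 13157 and 12971 (log2 fold change 0.50, standard error 0.025, adjusted p = 4.1e-11).

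All 3 main type VI chains thus rose, and Col6a2 rose more than Col6a1, its neighbour at a distance of 85.2 kb on the same strand. There were 2.25 and 2.31 Col6a1 counts for each Col6a2 count in wt and 1.36 and 1.32 in Top2β-null libraries, a log2 difference of -0.77 with a pooled replicate SD of 0.031. The chains Col6a4, Col6a5 and Col6a6, which lie side by side on chromosome 9 and can take the place of α3, were scarce. Col6a4 had 62.6 and 44.4 normalized counts in wt and 17.6 and 15.8 in Top2β-null libraries (log2 fold change -1.67, adjusted p = 2.66e-04), and Col6a5 and Col6a6 had at most 22.2 in any library.

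Col7a1 (chromosome 9, 108953586 to 108984875) encodes type VII collagen, the anchoring fibril that fastens the epidermal basement membrane to the dermis. It rose from 1834 and 1885 to 4494 and 4048 normalized counts (log2 fold change 1.20, standard error 0.049, adjusted p = 2.45e-12). Thus a collagen that attaches to basement membranes rose while the main network chains Col4a1 and Col4a2 fell. The nearest tested protein-coding neighbours of Col7a1, Uqcrc1 and Ucn2, had log2 fold changes of 0.076 and -0.27.

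Type VIII and type X collagens are short chains that form open networks, the first around vessels and in the cornea, the second in growth plate cartilage. Col8a1 rose from 11068 and 11165 to 15293 and 15314 normalized counts (log2 fold change 0.46, standard error 0.024, adjusted p = 6.8e-11). Its partner Col8a2 had 11.1 and 4.83 in wt and 17.6 and 23.8 in Top2β-null libraries (adjusted p = 0.0175), so that Col8a1 outnumbered it at least 644-fold in counts in every library. Col10a1, a marker of mature growth plate cartilage, had 308 and 339 normalized counts in wt and 281 and 287 in Top2β-null libraries and did not pass the test (adjusted p = 0.102). A few bases of its exons (0.58%) lie opposite those of Nt5dc1.

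Type XV and type XVIII collagens are proteoglycans of the basement membrane zone, and Col18a1 is the source of endostatin. Col18a1 had 1168 and 1139 normalized counts in wt and 1237 and 1291 in Top2β-null libraries (log2 fold change 0.13, standard error 0.053, adjusted p = 0.040). Col15a1 had 25.2 and 27.0 in wt and 12.4 and 9.90 in Top2β-null libraries (log2 fold change -1.22, standard error 0.39, adjusted p = 0.0112). Of the collagens with a membrane anchor, Col17a1 of hemidesmosomes had 410 to 464 normalized counts in all libraries (adjusted p = 0.303). Col23a1 had 189 and 141 in wt and 120 and 121 in Top2β-null libraries (log2 fold change -0.45, adjusted p = 0.025), and the wt libraries lay farther apart than their lower value lay from the Top2β-null ones. Col13a1 had 0 counts in every library, which allows up to 3 counts or about 3 normalized counts in each.

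Col28a1, a collagen found beside peripheral nerve glia, was near absent from wt cells with 0 and 2 counts, and had 17 and 13 counts in Top2β-null libraries, 15.4 times the wt level (95% exact binomial interval 3.9 to 133, counting error only). Its fitted log2 fold change of 3.79 was 2.88 without wt replicate 1 and 6.92 without wt replicate 2, and without either Top2β-null library it failed the filter and could not be tested. The collagens that were too low to test were Col24a1, Col9a1, Col19a1, Col22a1, Col6a5, Col13a1, Col25a1 and Col26a1. All 8 stayed at or below 17.6 normalized counts in every library and failed the filter, so no difference in them was tested.

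Chains that assemble with each other can be set side by side. Col4a1 and Col4a2 fell together and Col6a1, Col6a2 and Col6a3 rose together, in type I only Col1a1 passed the test, and in type V Col5a1 and Col5a2 moved apart. Other partners also parted, since Col4a4 rose while Col4a5, with which it can assemble, fell to near 0, and Col6a4 fell while the main type VI chains rose. The log2 ratio of Col3a1 to Col1a1, the 2 major fibrillar types called lower, rose by 0.37 (pooled replicate SD 0.035), so Col1a1 fell by more than Col3a1.

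The enzymes and chaperones that act on collagens changed gene by gene. Of 35 genes of collagen modification, folding, export, trimming and cross-linking, 33 were tested, and 6 were called higher and 4 lower, or 18.2% and 12.1% against 5.52% and 5.25% of all genes. By the adjusted p alone 15 were higher and 15 lower, 45.5% each against 32.8% and 33.7% (Colgalt2, among those higher, passed the filter through Top2β-null cells alone and so had to differ), and the median log2 fold change was 0.034. Serpinh1, P4hb and P4ha1 were lower by the adjusted p but not called. Serpinh1, the collagen-specific chaperone HSP47, had 84458 and 85610 normalized counts in wt and 70335 and 71753 in Top2β-null libraries (log2 fold change -0.26), and P4hb, a subunit of the prolyl 4-hydroxylase, had 63239 and 63121 in wt and 54916 and 55884 in Top2β-null libraries (log2 fold change -0.19). P4ha1, a catalytic subunit that pairs with P4hb, had 17572 and 17449 in wt and 10801 and 10918 in Top2β-null libraries (log2 fold change -0.69, adjusted p = 4.15e-13). The catalytic subunits did not all move alike, since P4ha2 was lower (log2 fold change -0.40) and P4ha3 higher (0.48) by the adjusted p, neither of them called.

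The called genes split within enzyme families. Of the lysyl hydroxylases, Plod1 fell from 9260 and 9350 to 4230 and 4266 normalized counts (log2 fold change -1.13, standard error 0.027), while Plod3, which also adds sugars to the modified lysine, rose from 9157 and 9244 to 18250 and 18667 (log2 fold change 1.00, standard error 0.025, just past the cut-off). Without wt replicate 1 the log2 fold change of Plod3 is 0.98 and without wt replicate 2 it is 0.997, and Plod3 is then no longer called. Of the lysyl oxidases, which start cross-links, Lox fell from 94579 and 95185 to 36423 and 37266 normalized counts (log2 fold change -1.36, standard error 0.027). Loxl2 rose from 127 and 137 to 365 and 373 (log2 fold change 1.48, standard error 0.11), and Loxl3 rose from 2105 and 2135 to 4276 and 4401 (log2 fold change 1.03, standard error 0.038). Loxl1 (log2 fold change -0.43, adjusted p = 2.39e-10) and Loxl4 (-0.79, adjusted p = 2.9e-13) were lower but short of the cut-off.

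The same split was seen in the proteinases that remove the C-terminal propeptide of fibrillar procollagens. Bmp1 fell from 8674 and 8653 to 3606 and 3553 normalized counts (log2 fold change -1.28, standard error 0.028), and its relative Tll1 rose from 369 and 443 to 1390 and 1245 (log2 fold change 1.69, standard error 0.081). Their enhancer Pcolce2 dropped from 3805 and 3987 to 217 and 187 normalized counts (log2 fold change -4.27, standard error 0.066), whereas Pcolce had a log2 fold change of 0.72, from 31652 and 33199 to 53560 and 53282. Creb3l1, a membrane-bound transcription factor that activates type I collagen genes in bone, rose from 249 and 280 to 1174 and 1256 normalized counts (log2 fold change 2.20, standard error 0.075), and P3h3, a prolyl 3-hydroxylase relative, from 937 and 1039 to 2639 and 2521 (log2 fold change 1.38, standard error 0.055).

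**Figure D5:**
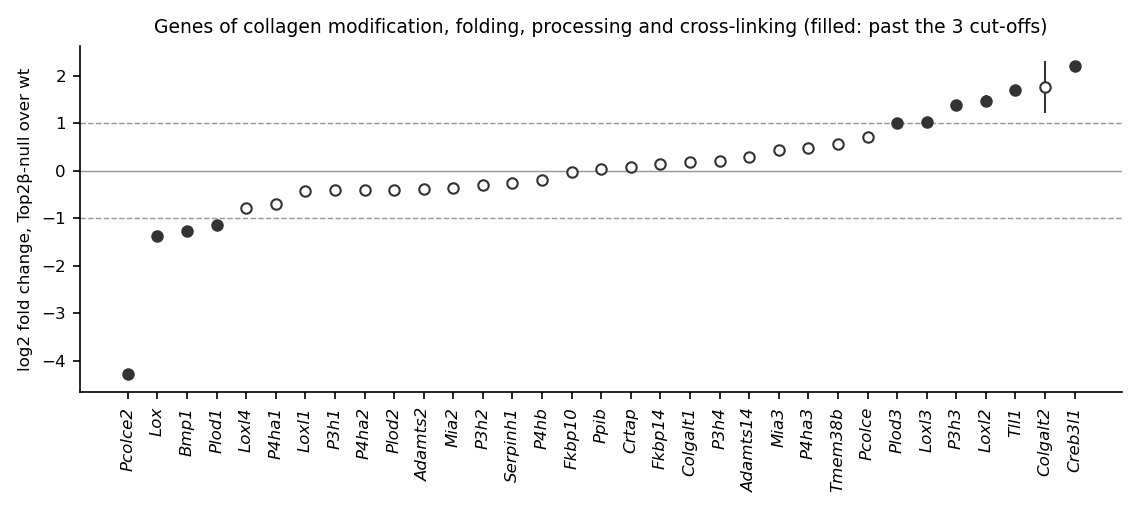
Log2 fold change of Top2β-null over wt cells with its standard error for the 33 tested genes of collagen modification, folding, processing and cross-linking, ordered by size, with filled points for the 10 genes past all 3 cut-offs. Pcolce2 at -4.27 and Creb3l1 at 2.20 are the ends of the called genes, and most genes lie between the dashed lines at 1 in either direction.

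The receptors for collagen held no called gene. Of 10 genes for collagen-binding integrins, discoidin domain receptors and collagen uptake, 8 were tested and 0 were called in edgeR's test, while 3 were higher and 3 lower by the adjusted p, 37.5% each against 32.8% and 33.7% of all genes. With 5.52% and 5.25% of all genes called, a count of 0 among 8 lies near the background. The ends of these 6 were Ddr1 (6423 and 6625 normalized counts in wt, 3609 and 3664 in Top2β-null libraries, log2 fold change -0.84) and Itga11, the integrin chain for fibrillar collagen on fibroblasts (225 and 203 in wt, 398 and 368 in Top2β-null libraries, log2 fold change 0.84).

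Of 22 transcription factors known to act on collagen genes, 20 were tested, with 4 called higher (Sox5, Egr1, Fli1 and Osr2) and 1 lower (Scx), or 20% and 5% against 5.52% and 5.25% of all genes. Sox5 and Fli1 passed the filter through Top2β-null cells alone and so had to differ. Scx, the tendon factor that acts on type I collagen genes, fell from 2890 and 2877 to 348 and 327 normalized counts (log2 fold change -3.10, standard error 0.057). Fli1, known to hold back type I collagen genes in fibroblasts, rose from 5.05 and 0.966 to 251 and 262 (log2 fold change 6.38, standard error 0.31), and the immediate early factor Egr1 from 1406 and 1467 to 20052 and 20770 (log2 fold change 3.83, standard error 0.033). Their part in the levels of collagen genes was not tested.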

How the data were processed

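Read pairs were trimmed with Trim Galore!, mapped to mm10 with STAR under settings that retain multiply aligned reads, and assigned to Gencode genes and repeat families by TEtranscripts. What the authors deposited is the resulting table of raw counts, in whole numbers and without any scaling. The mode and strand setting of the counting are not given in the sources used here, so reads where genes overlap on opposite strands cannot be assigned. The largest such overlaps among the collagens take up 6.07% of the exons of Col9a3 and 5.65% of those of Col4a3. Symbols, GRCm38 positions and lengths were taken from GENCODE release M21, in which 54495 of 54842 gene identifiers were found. All columns were used.

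R 4.3.3, edgeR 4.0.16, limma 3.58.1 and DESeq2 1.42.0 were used. The filter kept 25085 genes and 1481 repeat families with 10 or more counts in 2 or more libraries, TMM factors came from all 26566, and the model had genotype as its single term. Standard errors were derived from the fold change and its F statistic. Normalized counts are scaled to a common size, the geometric mean over libraries of total times TMM factor. Libraries of a genotype differed beyond counting noise (chi-square over degrees of freedom of 3.65 for wt, 5.07 for Top2β-null cells), and each counts as 1 replicate. The tests were checked on simulated data.

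The rule for named genes takes members that were called or have a mean above 100 normalized counts. From the biosynthesis, receptor, transcription factor and marker lists it takes called genes, and P4hb, Serpinh1, Plod1, Bmp1 and Lox. Other members, neighbouring genes and uncalled genes of these lists, such as Pcolce, P4ha1, Loxl1, Loxl4, Ddr1, Itga11 and Sox6, were added with their values in view. The members, lists and tests were chosen with earlier results of these data known. Alternatives were DESeq2, other scalings and filters, a replicate block, the adjusted p alone (and, added after the data were seen, the same with DESeq2), other gene lengths, and leaving out each library.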

Additional observations from a re-analysis of the deposited data

How the results depend on the processing

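Of the alternative values for single collagen genes, fits with all libraries gave 234 with the same direction and call, 3 weaker and 1 reversed, and fits without a library gave 129, 4 weaker, 3 stronger and 2 reversed. With a library left out, the lone library is assumed to vary like the other genotype's. The reversed genes are Col1a2 (0.032 with scaling to the total count, -0.062 to 0.0059 with each library left out) and Col6a6 (-0.56 to 0.054). The adjusted p alone gave 17 collagens higher and 13 lower, and 15 and 15 biosynthesis genes. With DESeq2, added after the data were seen, it gave 13 and 11 collagens, and 13 and 15 biosynthesis genes. At least 100 counts in every library left 3 collagens called higher and 4 lower, since Col11a1, Col4a5, Col4a6 and Col14a1 are removed. Leaving out each library gave 4 to 5 collagens called higher and 5 to 6 lower, and 5 to 6 and 4 biosynthesis genes.

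The median log2 fold change of fibrillar collagens was 0.11 with DESeq2 or genes-only TMM factors, 0.17 after total-count scaling, 0.25 when low counts were kept and -0.031 with at least 100 counts in every library, and 0.062 to 0.14 with each library left out. For basement membrane collagens these last 4 settings gave -2.60, -2.66, -2.60 and -2.65 to -0.86, the high end because Col4a5 and Col4a6 fail the filter without a wt library. FACIT collagens had -0.19 without a filter, -0.16 with the stricter one and -0.48 to -0.23 with each library left out, and other collagens had 0.37 with the total count, 0.48, 0.47 and 0.12 to 0.29. The share of collagen counts differed by -0.183 percentage points over genes and repeats and by -0.0676 without Col1a1, Col1a2 and Col3a1. The Col4a3 to Col4a4 log2 ratio ranged from -0.81 to 0.57 with each library left out. Where not stated, the cause was not tested.

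With the replicate number as a block, the same 4 collagens were called higher and the same 7 lower. Same-numbered libraries had a correlation of deviations of 0.0197 over 17952 features, so the numbers are not shown to pair the libraries. Scaling to the total count moved the median of all genes by 0.070.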
